A study of Mus musculus with 15 samples.

Results

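Transcript levels in the fetal small intestine of mice with catalytically dead caspase-8 were compared with the average of 2 genotypes whose gut the labels call normal. The comparison took in all 15 libraries of the series: 5 from Casp8 C362A knockin embryos, whose tissue the labels mark as inflamed, 5 from embryos with wildtype Casp8, and 5 from Casp8 knockout embryos. Every group was sampled at e16.5 (embryonic day) and every group also lacked Mlkl, so the comparison holds the Mlkl knockout constant. The value for each gene is the C362A mean minus the average of the wildtype mean and the knockout mean, on the log2 scale. The libraries were made from RNA of intestinal tissue, and the labels name no sorting of cells, so a lower level can mean fewer cells of a type or less RNA per cell, which these data cannot tell apart. No strain, litter or sex is given in the labels, and nothing in them says whether inflammation was scored in each embryo or assigned to the genotype. They do not state that libraries came from separate embryos, and the p-values measure only the spread between these libraries.

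Caspase-8 is the initiator protease of death-receptor apoptosis. Recruited by the adaptor Fadd, it cleaves executioner caspases, and its activity also restrains the kinases Ripk1 and Ripk3, which otherwise activate the pseudokinase Mlkl to rupture the cell by necroptosis. The C362A substitution replaces the catalytic cysteine with alanine. It leaves a protein that can still assemble into complexes but cannot cleave, while the knockout removes the protein, and the average of the normal genotypes therefore joins embryos with active caspase-8 and embryos with none.

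The codon that the knockin alters is shown because it is the 1 designed difference between the C362A and wildtype groups. In the GENCODE transcript of Casp8 it lies in exon 8 of 9, at chr1:58844619-58844621 (GRCm38, plus strand), within a coding sequence for 480 amino acids. The reference sequence is given 5′ to 3′ with 30 bases on each side and with the cysteine codon in capitals. Counts per gene do not show whether a library carried the altered codon.
Casp8 around Cys362: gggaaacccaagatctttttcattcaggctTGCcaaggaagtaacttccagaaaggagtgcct

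The libraries held 31896399 to 38532127 counts, and 22295 to 24039 genes had a count in a library. Sample ID numbers run consecutively and pass through the 3 genotypes in 2 rounds, with 2 libraries per genotype in round 1 and 3 in round 2. What the rounds stand for is not known. The C362A libraries of round 1 were replicates 2 and 5, and those of round 2 were replicates 1, 3 and 4. The round 2 C362A libraries had 22295 to 22896 genes with a count, and those of round 1 had 23560 to 23612, while normal libraries had 22536 to 24039. C362A replicate 5 stood apart from the other C362A libraries, with the lowest quality weight of all libraries by limma-voom (0.329). Counts of calls without it are given for all genes and for some lists. Adjusted p-values of single genes are from all 15 libraries unless stated. The intestinal label held in every library, with the villin gene Vil1 at 524 to 917 CPM. Y-linked genes were expressed in C362A replicates 1 and 4 and in 8 of the 10 normal libraries. The Y-linked gene Eif2s3y was at 22.3 and 8.83 CPM in those C362A libraries, below the 32.8 to 41.4 CPM of the 8 normal ones. Summed Y-linked expression was 92.5 and 113 CPM in those C362A libraries, against 117 to 156 CPM in the 8 normal ones. Xist, the X-inactivation transcript, was at 0.156 and 0.203 CPM there, against 115 to 953 CPM in the libraries without Y-linked expression. Whether any library pools embryos is not stated in the labels and was not tested.

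Casp8 transcript was present in the inflamed gut at the wildtype level. The C362A libraries held 71.2, 64.4, 72.1, 69.1 and 72.8 CPM (counts per 1e+06 counts, scaled by library), the wildtype libraries 67.3, 68.9, 77.5, 74.3 and 62.3 CPM, and knockout replicates 1, 3, 4 and 5 14.5, 13.5, 12.2 and 15.2 CPM, with a mean of 14.4 ± 1.65 CPM (SD, n = 5) over all knockout libraries. The C362A and wildtype values overlapped, and all knockout values lay far below both. Casp8 was therefore called in the main comparison (log2 fold change 1.14, SE 0.07, adjusted p = 6.29e-08 by edgeR's quasi-likelihood test) because the knockout enters the average. Against wildtype alone the log2 fold change was 0.00 (SE 0.08, edgeR adjusted p = 0.987). Mlkl was near the limit of detection in every group, with 6 to 28 counts per C362A library, 13 to 26 per knockout library and 11 to 24 per wildtype library, and the part of the gene removed by the knockout is not known here.

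The partners of caspase-8 did not pass. In every list described with 0 called by edgeR, limma-voom also called 0, and DESeq2 called 0 unless its count is given. Cflar, which encodes the inactive homolog that pairs with caspase-8, lay between 30.6 and 41.6 CPM in C362A and between 35.7 and 44.5 CPM in the normal libraries (log2 fold change −0.10, SE 0.07, edgeR adjusted p = 0.437). Fadd had a log2 fold change of 0.02 (SE 0.07), Ripk1 of −0.01 (SE 0.06) and Ripk3 of −0.02 (SE 0.07), with edgeR adjusted p-values of 0.878, 0.929 and 0.875. In the list of caspase-8 complexes 1 of 15 genes tested was called, and that gene was Casp8 itself.

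Beside Casp8, 6 genes rose in the inflamed gut: the chemokine gene Cxcl10, the macrophage lectin gene Mgl2, the myeloid receptor gene Slamf8, the macrophage transcription factor gene Spic, and the protease inhibitor genes Serpina3f and Serpina3g. None fell by edgeR. In total 7 of 18370 genes tested passed an adjusted p of 0.05 in edgeR (0.0381% of genes), 7 higher and 0 lower. Without adjustment (p under 0.05), 1860 genes were higher (10.1%) and 1789 were lower (9.74%). By DESeq2, 111 were higher and 133 lower at an adjusted p under 0.05, of 14797 genes that got one. The DESeq2 counts of single lists below are to be read beside these. The median log2 fold change over all genes was 0.01.

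**Figure D1:**
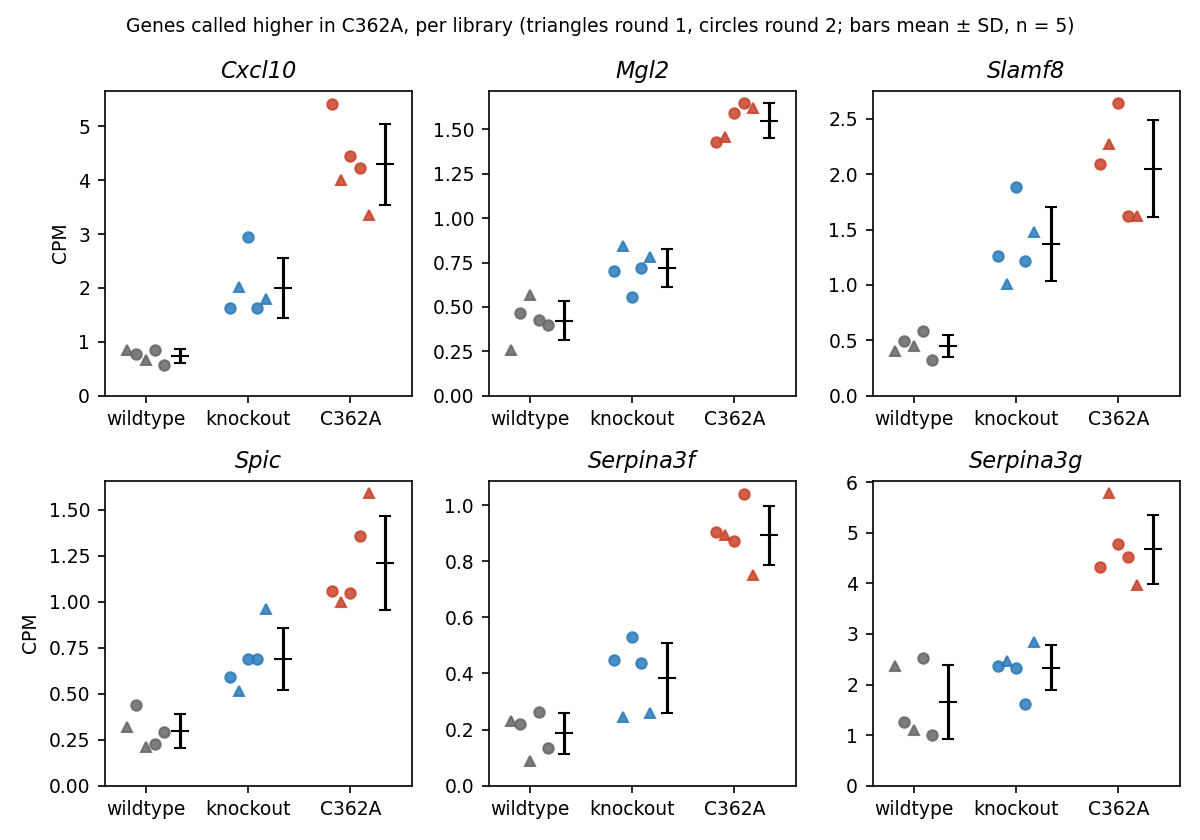
CPM (vertical axis, linear from 0) of the 6 called genes other than Casp8 in every library, by genotype (horizontal axis); triangles are round 1 libraries, circles round 2, and bars the mean ± SD of 5 libraries. For all 6 genes the C362A mean is the highest and the wildtype mean the lowest, and for Slamf8 the C362A and knockout libraries overlap.

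Cxcl10 encodes an interferon-inducible chemokine that attracts T and NK cells through Cxcr3 (chr5:92346638-92348889, GRCm38). It was at 5.42, 4.0, 4.45, 4.23 and 3.36 CPM in C362A, at 1.63, 2.01, 2.94, 1.62 and 1.80 CPM in knockout and at 0.839, 0.768, 0.655, 0.85 and 0.560 CPM in wildtype. The 3 groups did not overlap, and the knockout lay between the other two. The log2 fold change was 1.82 (SE 0.16, edgeR adjusted p = 1.48e-05).

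Mgl2, a C-type lectin gene of macrophages and dendritic cells (chr11:70130125-70137542), was at 1.43, 1.46, 1.59, 1.65 and 1.62 CPM in C362A. The knockout libraries held 0.702, 0.843, 0.557, 0.717 and 0.781 CPM and the wildtype libraries 0.260, 0.466, 0.565, 0.425 and 0.400 CPM. All C362A libraries were above all 10 normal ones, while knockout replicate 3 fell below the highest wildtype library (log2 fold change 1.48, SE 0.17, edgeR adjusted p = 0.000618).

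Slamf8 encodes a SLAM family receptor of myeloid cells (chr1:172581377-172590873). Its C362A libraries held 2.09, 2.27, 2.64, 1.62 and 1.62 CPM, its knockout libraries 1.26, 1.01, 1.88, 1.22 and 1.48 CPM, and its wildtype libraries 0.405, 0.494, 0.446, 0.588 and 0.320 CPM. Knockout replicate 3 was above C362A replicates 4 and 5, so Slamf8 separated both mutants from wildtype but not the mutants from each other (log2 fold change 1.38, SE 0.18, edgeR adjusted p = 0.00323).

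Spic, the transcription factor gene of iron-recycling macrophages (chr10:88675269-88683023), was at 1.06, 1.0, 1.05, 1.36 and 1.59 CPM in C362A, 0.590, 0.517, 0.689, 0.686 and 0.963 CPM in knockout and 0.318, 0.439, 0.208, 0.229 and 0.293 CPM in wildtype. The 3 groups did not overlap (log2 fold change 1.41, SE 0.21, edgeR adjusted p = 0.00833).

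Serpina3f and Serpina3g lie side by side in a cluster of serine protease inhibitor genes with near-identical copies, and uniquely aligned reads may be lost or split among them. Serpina3f (chr12:104214544-104221129) was at 0.903, 0.892, 0.872, 1.04 and 0.749 CPM in C362A, against 0.245 to 0.530 CPM in knockout and 0.0893 to 0.261 CPM in wildtype (log2 fold change 1.73, SE 0.24, edgeR adjusted p = 0.00498). Serpina3g (chr12:104236147-104241939) was at 4.33, 5.79, 4.78, 4.52 and 3.96 CPM in C362A, against 1.62 to 2.84 CPM in knockout and 1.01 to 2.52 CPM in wildtype (1.25, SE 0.20, edgeR adjusted p = 0.0177). For both genes every C362A library was above every normal library.

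These 6 genes were scarce in normal gut, so the size of their fold changes rests on few reads. In wildtype libraries Serpina3f had 3 to 8 counts, Spic 7 to 16, Mgl2 9 to 19, Slamf8 12 to 18 and Cxcl10 21 to 29, while C362A libraries held 25 to 36, 34 to 53, 46 to 57, 54 to 88 and 112 to 174 counts in the same order. All but Serpina3g passed with any single library left out, with the largest edgeR adjusted p of 0.0494 for Spic. Serpina3g did not pass without C362A replicates 2, 3 or 4, knockout replicate 1 or wildtype replicate 2 (adjusted p up to 0.104). It also did not pass with a covariate for Y-linked expression. With the 10 normal libraries treated as 1 group, none of the 7 genes passed (edgeR adjusted p = 0.151 for Cxcl10 and 0.0541 for Mgl2). In that fit any gap between knockout and wildtype counts as spread, and its part in this result was not tested.

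A difference from the average does not show a difference from each genotype, so the 3 pairs of genotypes are given side by side, with the reminder that they share libraries. C362A against wildtype gave 15 higher genes and 0 lower (0.0817% of genes tested), C362A against knockout 2 higher and 0 lower (0.0109%), and knockout against wildtype 5 higher and 2 lower (0.0381%), all by edgeR. Cxcl10 had a log2 fold change of 2.54 (SE 0.20, edgeR adjusted p = 7.96e-06) in C362A against wildtype, of 1.45 (SE 0.20, edgeR adjusted p = 0.0143) in knockout against wildtype, and of 1.10 (SE 0.19, edgeR adjusted p = 0.11) in C362A against knockout. Slamf8 passed likewise against wildtype in both mutants (2.18 and 1.60) but not between them (0.58, SE 0.21, edgeR adjusted p = 0.317). Mgl2, Spic, Serpina3f and Serpina3g passed in C362A against wildtype (log2 fold changes of 1.87, 2.0, 2.24 and 1.5). In knockout against wildtype they had 0.76, 1.2, 1.03 and 0.50, and in C362A against knockout 1.10, 0.81, 1.21 and 1.0, with no edgeR adjusted p under 0.05.

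The 2 genes that passed in C362A against knockout were Casp8 and Ddit4, the stress-inducible inhibitor of the kinase mTORC1. Ddit4 was at 56.5, 50.3, 53.7, 48.9 and 61.1 CPM in C362A, at 34.2 to 37.2 CPM in knockout and at 44.8 to 55.1 CPM in wildtype. Its C362A and wildtype libraries overlapped, and all knockout libraries were lower (C362A against knockout 0.59, SE 0.07, edgeR adjusted p = 0.00374; against wildtype 0.12, SE 0.07, edgeR adjusted p = 0.412). In the main comparison it just missed the threshold (0.35, SE 0.06, edgeR adjusted p = 0.0639).

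Promoters of the called genes were searched for motifs because these genes passed in the main comparison. Only promoters that hold the interferon or the kB motif are printed. Casp8 is among the called genes because the knockout enters the average, and its C362A and wildtype libraries overlapped. All 7 called genes had a promoter in the RefSeq table (GRCm38.p6, 250 bases before to 50 after the start). The core of the interferon response element (GAAANNGAA, either strand) was in the promoters of 3 of the 7, Cxcl10, Slamf8 and Serpina3f, and in 8.56% of all promoters. The kB core (GGGANNTTC) was in 2 of the 7, Cxcl10 and Slamf8, and in 3.94% of all. The GAS motif (TTCNNNGAA) was in Serpina3f, where it overlaps the interferon core, and in Serpina3g, and in 8.3% of all promoters, while the PU.1 motif (GAGGAAGT) was in 0 of the 7 and in 3.2% of all. Sequences run 5′ to 3′ on the gene's strand, and capitals mark the interferon core and the kB core. A match is only a description of letters in this window. The Cxcl10 promoter lies at chr5:92348840-92349139 (minus strand), that of Slamf8 at chr1:172590519-172590818 (minus strand), and the upstream one of 2 listed for Serpina3f at chr12:104214294-104214593 (plus strand).
Cxcl10: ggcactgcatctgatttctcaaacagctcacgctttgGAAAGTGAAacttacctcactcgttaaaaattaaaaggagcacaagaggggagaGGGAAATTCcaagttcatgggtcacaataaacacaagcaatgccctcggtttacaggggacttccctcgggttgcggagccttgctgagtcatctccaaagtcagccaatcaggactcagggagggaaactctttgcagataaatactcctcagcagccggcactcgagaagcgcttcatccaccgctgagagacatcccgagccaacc
Slamf8: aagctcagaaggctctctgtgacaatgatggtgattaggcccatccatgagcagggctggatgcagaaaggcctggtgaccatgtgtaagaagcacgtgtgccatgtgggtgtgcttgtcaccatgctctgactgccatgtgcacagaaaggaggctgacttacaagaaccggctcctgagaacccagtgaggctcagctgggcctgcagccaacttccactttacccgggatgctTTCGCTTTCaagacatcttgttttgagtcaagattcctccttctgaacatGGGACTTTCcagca
Serpina3f: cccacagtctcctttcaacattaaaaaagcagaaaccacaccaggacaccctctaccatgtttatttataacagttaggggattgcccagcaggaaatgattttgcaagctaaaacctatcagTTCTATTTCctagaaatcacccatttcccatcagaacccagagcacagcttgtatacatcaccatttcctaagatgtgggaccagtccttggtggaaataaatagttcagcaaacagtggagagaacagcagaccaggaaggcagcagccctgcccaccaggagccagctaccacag

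In 33 genes all 5 C362A libraries lay above all 10 normal libraries (0.18% of genes tested), and in 8 all 5 lay below (0.0435%). Of the 33, 5 were called (Cxcl10, Mgl2, Serpina3f, Spic and Serpina3g). The uncalled genes named next were picked with their values known. Apobec3, which encodes a cytidine deaminase that restricts retroviruses, was at 13.9, 13.4, 13.9, 14.9 and 14.0 CPM in C362A against 8.48 to 12.3 CPM in knockout and 9.0 to 10.4 CPM in wildtype (log2 fold change 0.44, SE 0.08, edgeR adjusted p = 0.0639). Ly6e, an interferon-inducible surface protein gene, was at 132 to 148 CPM against 88.1 to 125 CPM in the normal libraries (0.39, SE 0.07, edgeR adjusted p = 0.0744). Nfkbia, which encodes the inhibitor that NF-kB itself induces, was at 37.5 to 46.5 CPM against 26.9 to 35.1 CPM (0.39, SE 0.08, edgeR adjusted p = 0.1). Among the genes with all C362A libraries below were Phldb3 (10.2 to 12.7 against 12.8 to 19.0 CPM, −0.44, SE 0.10) and Trem1, a receptor gene of neutrophils and monocytes (1.28 to 1.77 against 1.93 to 2.89 CPM, −0.50, SE 0.15), with edgeR adjusted p-values of 0.152 and 0.187.

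Cxcl10 was the only listed gene of inflammatory signalling called by edgeR. Of 23 chemokine ligand genes tested 1 was called higher (Cxcl10) and 15 were positive, with a median log2 fold change of 0.19. The unadjusted p was under 0.05 in 6 higher and 3 lower chemokine genes, against 10.1% and 9.74% of all genes. In this list DESeq2 called 2 higher and 2 lower. In the list of the NF-kB response 17 of 23 genes were positive and 0 were called. Its unadjusted p was under 0.05 in 8 genes, all higher, against 10.1% of all genes (median 0.15). DESeq2 called 4 members higher, against 111 of 14797 genes. Its member with the smallest p was Madcam1, the endothelial ligand for gut-homing lymphocytes, at 20.1, 21.9, 28.2, 22.7 and 22.7 CPM in C362A against 16.0 to 18.2 CPM in knockout and 11.3 to 18.8 CPM in wildtype. All C362A libraries were above all normal ones, while knockout and wildtype overlapped, and the gene missed the threshold (0.53, SE 0.10, edgeR adjusted p = 0.0645). Vcam1, an adhesion molecule gene of activated endothelium chosen after its values were seen, was at 20.7 to 35.4 CPM against 12.9 to 25.9 CPM in the normal libraries (0.65, SE 0.13, edgeR adjusted p = 0.112).

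No listed interferon-stimulated gene was called by edgeR. Of 34 tested 23 were positive, with a median of 0.17. The unadjusted p was under 0.05 in 3, all higher, against 10.1% of all genes. Ifit2, a translation inhibitor gene and the member with the smallest p, was at 11.5 to 15.6 CPM in C362A and at 8.76 to 12.4 CPM in the normal libraries (0.36, SE 0.09, edgeR adjusted p = 0.181). The list median was 0.23 in knockout against wildtype, and 0.01 in the main comparison without C362A replicate 5. DESeq2 called 1 member higher, and limma-voom 0. The median was 0.21 for GTPases of the guanylate-binding and immunity-related families, with 11 of 14 positive. In this list 0 were called by edgeR and 1 was called higher by DESeq2. In 4 the unadjusted p was under 0.05, all higher, against 10.1% of all genes. Irgm1 had the smallest p (26.1 to 28.4 against 18.8 to 26.1 CPM, 0.33, SE 0.07, edgeR adjusted p = 0.112). MHC class I presentation genes had 7 of 14 positive and a median of 0.00. Inflammatory cytokines had a median of −0.01 and 8 of 16 positive, with 0 called in either list by edgeR. The unadjusted p was under 0.05 in 3 genes of the first list, all higher, and in 2 higher and 2 lower genes of the second. Over all genes 10.1% were higher and 9.74% lower at that threshold.

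Inflammasome and pyroptosis genes had mostly negative values. Of 20 tested 5 were positive and the median was −0.28, with 0 called. By the unadjusted p under 0.05, 1 was higher and 7 were lower, against 10.1% and 9.74% of all genes. Gsdme, a pore-forming gasdermin gene cleaved by caspase-3, had the smallest p (7.64 to 9.74 CPM in C362A against 8.85 to 12.9 CPM in the normal libraries, −0.29, SE 0.10, edgeR adjusted p = 0.187). Without C362A replicate 5, 1 was higher and 6 were lower at an edgeR adjusted p under 0.05, against 7.46% and 9.49% of all genes. The summed level was 850, 927, 909, 869 and 1170 CPM in C362A, 1100 to 1210 CPM in knockout and 862 to 1450 CPM in wildtype. The enterocyte sums given below were also highest in replicate 5 within C362A and lowest in replicate 1, and their part in this list was not tested. Casp1, the protease gene of the inflammasome, chosen after its values were seen, was at 4.08, 9.33, 8.90, 10.2 and 16.9 CPM in C362A, 12.5 to 22.1 CPM in knockout and 7.49 to 36.8 CPM in wildtype (−0.94, SE 0.37, edgeR adjusted p = 0.205). Its wildtype libraries spanned the whole C362A range except the lowest library.

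Genes shared by blood cells had mostly positive values, and those of single blood lineages varied. Among 15 pan-hematopoietic genes 13 were positive, against 52.4% of all genes, and 11 had a positive value with an unadjusted p under 0.05, against 10.1% of all genes, with 0 called by edgeR, 2 called higher by DESeq2 and a median of 0.33. The list median was −0.01 within round 1 and 0.54 within round 2. Arhgdib, a gene of leukocytes, was at 31.3, 28.7, 33.2, 28.1 and 24.5 CPM in C362A against 19.8 to 24.7 CPM in the normal libraries, so only C362A replicate 5 overlapped them (0.37, SE 0.08, edgeR adjusted p = 0.112). Ptprc, which encodes the leukocyte antigen CD45 and was chosen after its values were seen, was at 12.4, 11.8, 18.3, 19.1 and 12.2 CPM against 9.35 to 14.4 CPM (0.33, SE 0.13, edgeR adjusted p = 0.199), with only replicates 3 and 4 above all normal libraries.

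Macrophage genes were mixed. Of 24 macrophage and monocyte genes 19 were positive and 0 called by edgeR (median 0.16, 2 called higher by DESeq2). The unadjusted p was under 0.05 in 6 higher and 3 lower genes, against 10.1% and 9.74% of all genes. Adgre1, which encodes the marker F4/80, was at 12.8 to 16.1 CPM in C362A, 8.51 to 15.3 CPM in knockout and 7.59 to 9.38 CPM in wildtype (0.48, SE 0.11, edgeR adjusted p = 0.171). Lyz2, the lysozyme gene of myeloid cells, was at 32.4, 36.5, 67.1, 88.1 and 28.9 CPM in C362A against 21.4 to 43.7 CPM (0.81, SE 0.24, edgeR adjusted p = 0.187). Trem2, a lipid receptor gene of tissue macrophages, had a negative value (2.58 to 3.55 against 2.74 to 5.36 CPM, −0.49, SE 0.15, edgeR adjusted p = 0.187). Lyz2 and Trem2 were chosen after their values were seen. Among 13 genes of iron-recycling macrophages only Spic was called, and 8 were positive (median 0.11). Cd163, the hemoglobin scavenger receptor gene of that list, had a negative value (−0.84, SE 0.35, edgeR adjusted p = 0.207).

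Myeloid C-type lectin and SLAM receptor genes had 15 of 18 positive, against 52.4% of all genes, and a median of 0.40. Mgl2 and Slamf8 were the called members, against 0.0381% of all genes called. At an unadjusted p under 0.05, 7 were higher, against 10.1% of all genes. The list was chosen with earlier results of these data known, so its counts and sums are not independent of these called genes. Clec4n, which encodes the fungal pattern receptor Dectin-2 and was chosen after its values were seen, was at 3.77 to 4.94 CPM in C362A, 3.03 to 4.56 CPM in knockout and 1.82 to 2.53 CPM in wildtype (0.64, SE 0.12, edgeR adjusted p = 0.0639). The summed level of this list was 30.6 to 39.8 CPM in C362A, 26.2 to 35.5 CPM in knockout and 23.6 to 25.6 CPM in wildtype. The C362A and knockout sums overlapped, and both lay above the wildtype sums.

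Granulocyte and mast cell genes were high in some C362A libraries. The 15 neutrophil genes summed to 54.4, 63.8, 125, 139 and 52.8 CPM in C362A, 39.7 to 107 CPM in knockout and 23.2 to 62.0 CPM in wildtype. Of them 14 were positive, with a median of 0.73, 0 called by edgeR and 1 called higher by DESeq2. At an unadjusted p under 0.05, 3 were higher, against 10.1% of all genes. The neutrophil median was −0.61 within round 1 and 0.96 within round 2. Mmp9, a gelatinase gene of neutrophils and other cells, was at 26.5 to 45.1 CPM in C362A, 25.4 to 37.6 CPM in knockout and 12.0 to 19.6 CPM in wildtype. Both mutants lay above wildtype and overlapped each other (main comparison 0.73, SE 0.13, edgeR adjusted p = 0.0639; C362A against knockout 0.23, SE 0.15, edgeR adjusted p = 0.495). S100a8, a calprotectin subunit gene, was at 3.64, 3.65, 13.2, 16.8 and 1.68 CPM in C362A and at 1.47 to 11.1 CPM in the normal libraries (0.80, SE 0.54, edgeR adjusted p = 0.41).

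The 9 genes of mast cells and basophils all had positive values, with a median of 0.92 and 0 called by edgeR. At an unadjusted p under 0.05, 4 were higher, against 10.1% of all genes. The median was −0.18 within round 1 and 1.40 within round 2. The list summed to 49.7, 63.4, 96.6, 104 and 56.4 CPM in C362A, 36.5 to 69.1 CPM in knockout and 50.6 to 64.9 CPM in wildtype. Only C362A replicates 3 and 4 had sums above all normal libraries, and replicate 1 of round 2 was below all wildtype libraries. Mcpt4, a mast cell protease gene, was at 1.56, 0.676, 3.34, 2.55 and 0.479 CPM in C362A against 0.338 to 0.952 CPM in the normal libraries (1.63, SE 0.36, edgeR adjusted p = 0.153). For Mcpt4 the 3 C362A libraries of round 2 were above all normal libraries and those of round 1 were not. Alox15, a lipoxygenase gene of eosinophils and some macrophages, showed the same split with 3.11, 0.649, 2.22, 5.56 and 0.569 CPM in C362A against 0.253 to 0.795 CPM (2.21, SE 0.42, edgeR adjusted p = 0.0926).

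Lymphoid genes had values of both signs. Of 18 T, NK and innate lymphoid genes 10 were positive and 0 called by edgeR (median 0.07, 1 in each direction by DESeq2). By the unadjusted p under 0.05, 4 were higher and 2 lower, against 10.1% and 9.74% of all genes. Il2rg, the shared gamma chain gene of cytokine receptors, was at 10.4, 12.1, 12.5, 12.2 and 10.2 CPM in C362A against 7.29 to 10.9 CPM in knockout and 5.79 to 8.27 CPM in wildtype (0.56, SE 0.11, edgeR adjusted p = 0.0744). Of 12 listed B cell genes 3 were tested (Cd79b, Ebf1 and Blnk), of which 0 were called by edgeR and 1 was higher by the unadjusted p.

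Absorptive enterocytes take up lipid and, after birth, digest milk, and their genes had the lowest values of the epithelial lists. Of 25 enterocyte genes 24 were negative and 23 had a negative value with an unadjusted p under 0.05, against 9.74% of all genes, and the median was −0.66. With all 15 libraries 0 were called by edgeR and by limma-voom, and 4 were called lower by DESeq2, against 133 of 14797 genes. Their summed level was 9140, 13900, 12700, 13000 and 20200 CPM in C362A, 21100 to 25200 CPM in knockout and 12800 to 38000 CPM in wildtype. Every C362A sum was below every knockout sum, but 3 of the 5 lay within the wildtype range, whose lowest libraries held 12800 and 13800 CPM.

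Named enterocyte genes followed the sums. Mep1a, a brush border protease gene, was at 139, 188, 182, 193 and 222 CPM in C362A, 242 to 273 CPM in knockout and 177 to 309 CPM in wildtype (−0.44, SE 0.12, edgeR adjusted p = 0.187). The next 4 genes were picked with their values known. Fabp2, the intestinal fatty acid-binding protein gene, was at 485, 790, 647, 723 and 1480 CPM in C362A against 849 to 3280 CPM in the normal libraries (−1.02, SE 0.33, edgeR adjusted p = 0.187). Lct, the lactase gene, was at 204, 502, 421, 410 and 668 CPM against 460 to 1360 CPM (−0.94, SE 0.28), and Apob, the structural apolipoprotein gene of chylomicrons, at 303, 805, 546, 624 and 971 CPM against 738 to 1420 CPM (−0.79, SE 0.22). C362A replicate 1 was the lowest and replicate 5 the highest of the C362A libraries for each of these. Sis, the sucrase-isomaltase gene that is switched on after birth, was the 1 positive member (0.18, SE 0.30, edgeR adjusted p = 0.764). Transcription factors and structural genes of intestinal identity differed less, with a median of −0.07 and 14 of 15 negative, led by Vil1, the microvillus villin gene (524 to 716 against 576 to 917 CPM, −0.30, SE 0.10, edgeR adjusted p = 0.187).

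Cell cycle genes had the opposite sign. All 23 proliferation genes were positive, 18 were higher at an unadjusted p under 0.05 against 10.1% of all genes, and 0 were called by edgeR, DESeq2 or limma-voom (median 0.31). Bub1b, a spindle checkpoint kinase gene, was at 165, 124, 156, 146 and 94.3 CPM in C362A against 84.5 to 121 CPM in the normal libraries (0.39, SE 0.11, edgeR adjusted p = 0.187). Replicates 1 to 4 were above all normal libraries and replicate 5 was not. The replicative helicase gene Mcm4 showed the same order with 206, 158, 206, 197 and 97.1 CPM against 93.7 to 149 CPM (0.43, SE 0.15, edgeR adjusted p = 0.187). Mki67, the common proliferation marker gene, was at 316 to 388 CPM in C362A and at 231 to 373 CPM in the normal libraries (0.06, SE 0.09, edgeR adjusted p = 0.737). Mcm4 and Mki67 were chosen after their values were seen.

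**Figure D2:**
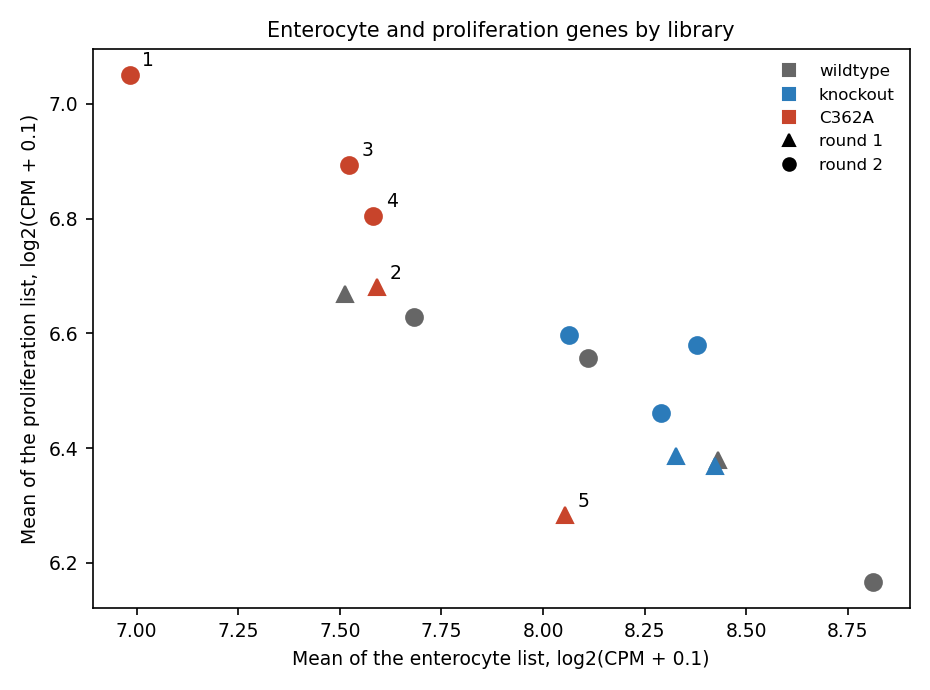
Mean log2(CPM + 0.1) of the enterocyte list (horizontal axis) and of the proliferation list (vertical axis), 1 point per library, coloured by genotype, with C362A replicates numbered, triangles for round 1 and circles for round 2. C362A replicates 1 to 4 have proliferation means of 6.68 to 7.05, above all normal libraries. The lowest of them, replicate 2 (6.68), is nearly level with the highest normal library, wildtype replicate 1 (6.67). C362A replicate 5 sits at an enterocyte mean of 8.05 and a proliferation mean of 6.28, among the normal libraries.

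Genes of the gut wall and the secretory epithelium had medians of smaller size than the enterocyte and proliferation lists. Of 21 fibroblast and matrix genes 17 were positive and 9 higher at an unadjusted p under 0.05, against 10.1% of all genes (median 0.18, with 0.01 in round 1 and 0.33 in round 2). The smallest p was that of Foxf1, a mesenchymal transcription factor gene (115 to 143 against 92.0 to 124 CPM, 0.26, SE 0.07, edgeR adjusted p = 0.187). Smooth muscle genes had a median of 0.12 and endothelial genes of 0.08, each with 3 higher members at an unadjusted p under 0.05. No member of these 3 lists was called by edgeR, and 2 endothelial genes were called higher by DESeq2. Goblet and tuft cell genes had a median of 0.09. Muc2, the goblet mucin gene, was at 14.6 to 36.4 CPM in C362A, 23.2 to 40.9 CPM in knockout and 17.6 to 87.3 CPM in wildtype (−0.68, SE 0.30, edgeR adjusted p = 0.237). Enteroendocrine genes had a median of 0.13, and Gcg, the proglucagon gene, lay at 29.6 to 48.6 against 18.0 to 39.1 CPM (0.39, SE 0.14, edgeR adjusted p = 0.188).

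Markers of neighbouring organs differed between libraries, and their part in the results was not tested. Liver genes had negative values in all 14 members tested (median −0.36, 0 called). At an unadjusted p under 0.05, 3 were lower, against 9.74% of all genes. Liver genes summed to 2580 to 3230 CPM in C362A, 2960 to 4990 CPM in knockout and 1990 to 3680 CPM in wildtype. Their median was −0.77 in C362A against knockout and 0.01 in C362A against wildtype. Pancreas genes summed to 12.4 to 160 CPM in C362A and 11.9 to 210 CPM in the normal libraries. Squamous epithelium genes summed to 275 CPM in C362A replicate 4 and to 30.1 to 44.0 CPM in the 14 other libraries. The keratin gene Krt4 was at 79.3 CPM in that library and at 0.0562 to 0.811 CPM in all others. Stomach genes summed to 6.68 to 21.5 CPM over all libraries, and Barx1, a stomach mesenchyme factor gene, was at 1.81, 0.162, 0.872, 1.91 and 0.180 CPM in C362A against 0.107 to 0.623 CPM. Erythroid genes had a median of 0.02, and genes of platelets and megakaryocytes one of −0.09 with 4 of 10 positive.

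How many genes passed depended on C362A replicate 5. Without it, 1370 genes were higher (7.46% of genes tested) and 1743 lower (9.49%) by edgeR, and these included all 7. Leaving out any other single library gave 6 to 9 higher genes and 0 lower. Without replicate 5, 18 of 23 proliferation genes and 9 of 15 pan-hematopoietic genes were called higher, and 19 of 25 enterocyte genes were called lower, with 0 in the opposite direction. Of 21 fibroblast and matrix genes 7 were called higher and 0 lower. Some named genes above passed only without it, such as Bub1b and Mcm4 (edgeR adjusted p = 0.0111 each), Mep1a (0.0178) and Fabp2 (0.0237). Others did not, such as Mki67 (0.624), Ptprc (0.056) and Casp1 (0.0541). The library was not left out for a reason in the labels, and these counts describe the 14 libraries that remain. In mean log2(CPM + 0.1), C362A replicate 5 was the highest of all 15 libraries for integrated stress response genes (4.79) and for hypoxia and glycolysis genes (6.67). Knockout libraries lay at 3.89 to 4.45 and at 6.04 to 6.28, and wildtype libraries at 3.88 to 4.03 and at 6.01 to 6.36. What sets this library apart was not tested.

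**Figure D3:**
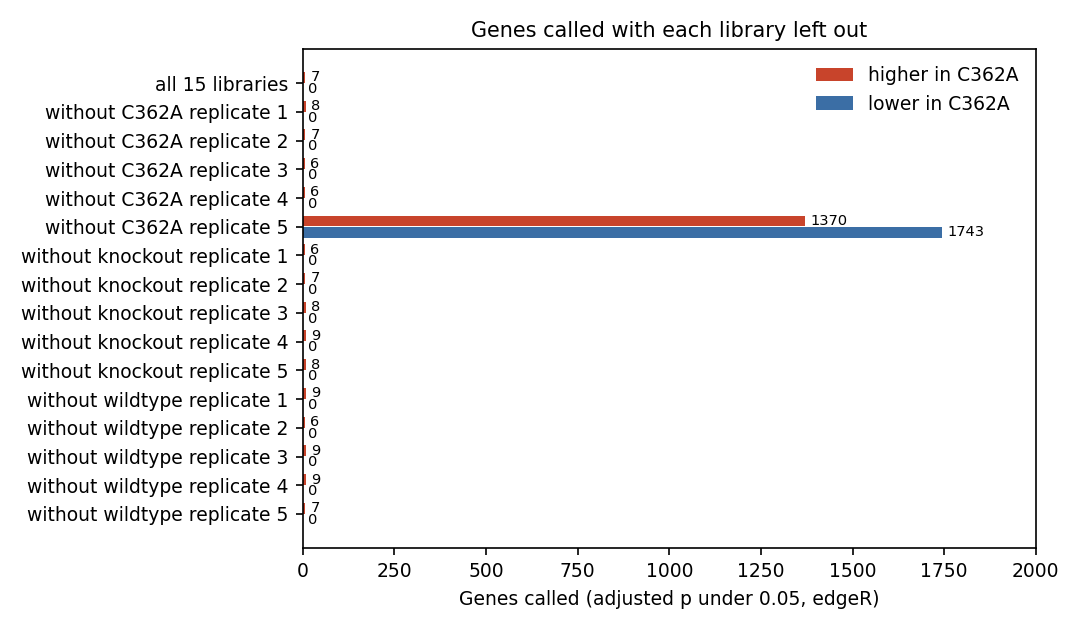
Number of genes called higher (red bars) or lower (blue bars) in C362A than in the average of wildtype and knockout, by edgeR at an adjusted p under 0.05 (horizontal axis, from 0), with all 15 libraries and with each library left out (vertical axis). Without C362A replicate 5 the counts are 1370 higher and 1743 lower, and with any other library left out at most 9 higher and 0 lower.

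The count of calls also differed between the rounds of sample IDs, round 1 holding C362A replicates 2 and 5. With round 2 alone (3 libraries per genotype) 1184 genes were higher and 1536 lower by edgeR, and with round 1 alone (2 per genotype) 0 passed, while the unadjusted p was under 0.05 in 164 higher and 60 lower genes. The enterocyte median was −0.35 in round 1 and −0.92 in round 2, and the proliferation median 0.03 and 0.44. Where the difference between rounds was itself tested, 50 genes passed (0.272% of genes tested), all with a lower log2 fold change in round 2. The 50 included the small nucleolar RNA genes Snord35a and Snord96a and the host transcript Snhg16, 0 belonged to the other gene lists, and 18 had no symbol. Cxcl10 had log2 fold changes of 1.62 and 1.94 in rounds 1 and 2, Mgl2 of 1.40 and 1.54 and Slamf8 of 1.41 and 1.36, and the smallest edgeR adjusted p for a difference between rounds among the 7 called genes was 0.519.

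**Figure D4:**
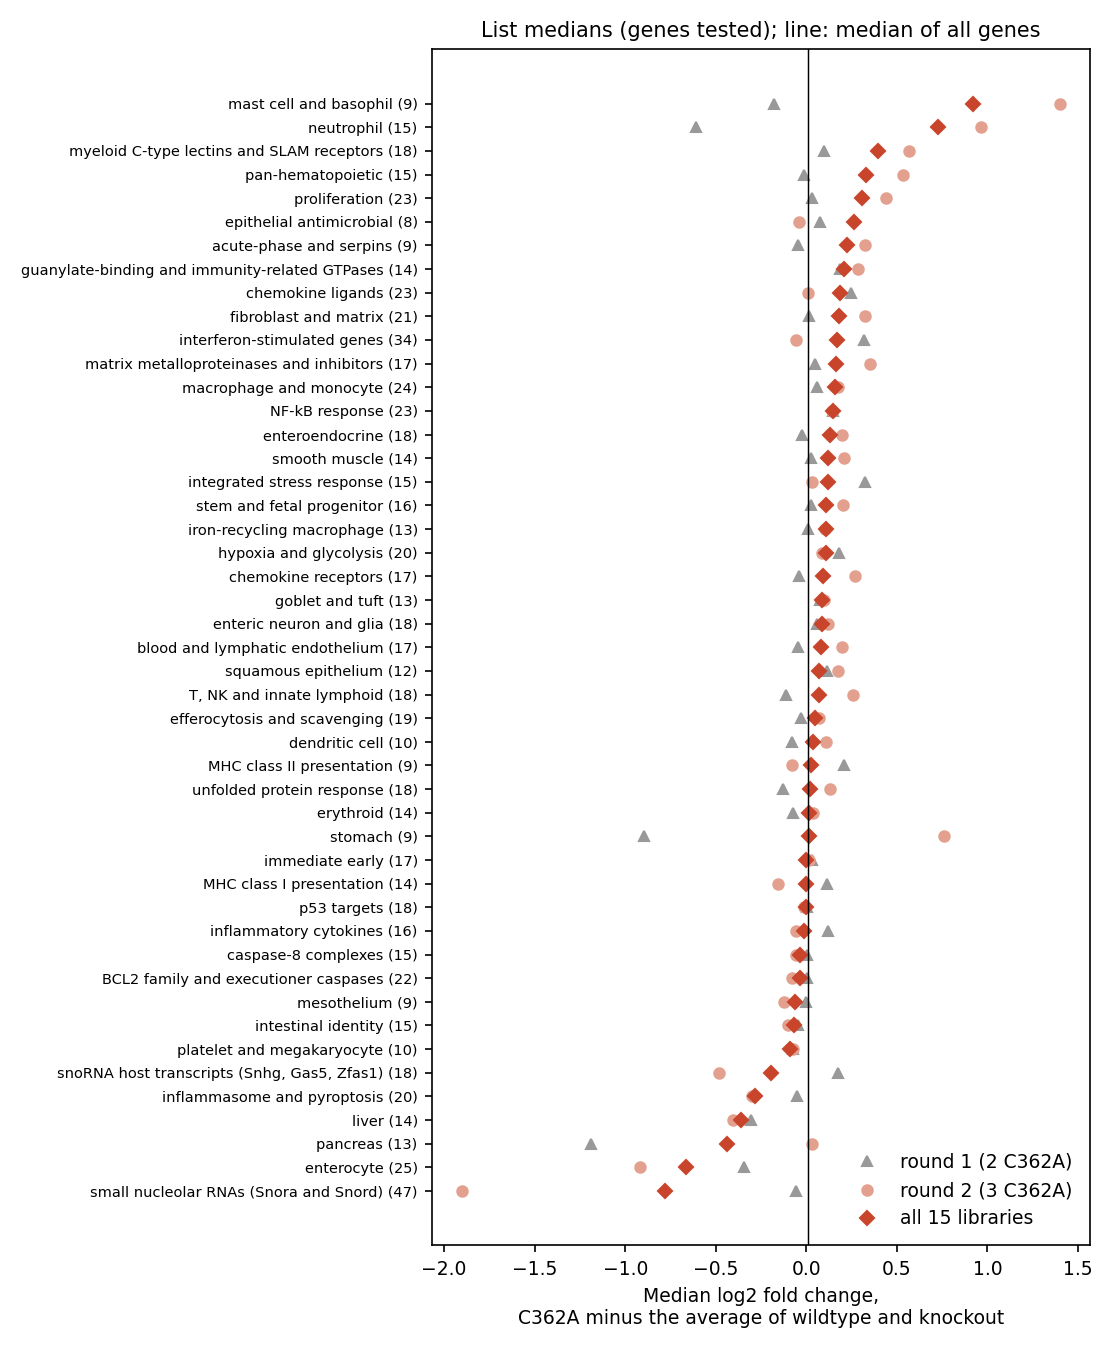
Median log2 fold change of C362A against the average of wildtype and knockout (horizontal axis) for every list with at least 8 genes tested (vertical axis, number of genes in parentheses), in all 15 libraries (diamonds), in round 1 (triangles) and in round 2 (circles). Proliferation and blood cell lists lie further right and the enterocyte list further left in round 2 than in round 1, and the NF-kB median is 0.15 in round 1 and 0.14 in round 2.

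Reads on small nucleolar RNA genes were scarce in the round 2 C362A libraries. The preparation selected polyA RNA, so these reads need not measure the mature small RNAs. The sums are small for 47 genes, so each gene rests on few reads. The 47 small nucleolar RNA genes tested, which guide modification of ribosomal RNA and are mostly cut from introns, summed to 10.6, 23.6, 6.37, 8.80 and 38.8 CPM in C362A, 14.7 to 37.5 CPM in knockout and 26.8 to 41.4 CPM in wildtype. The 3 C362A libraries of round 2 were the lowest of all 15, and replicate 5 was among the highest. The values of 2 protein-coding genes are given beside them. Ccnl1, a cyclin gene of RNA splicing, was at 39.5, 68.7, 33.4, 38.2 and 90.8 CPM in C362A against 58.7 to 88.5 CPM in the normal libraries, and Mdm4, a p53 inhibitor gene, at 26.9, 56.7, 25.8, 32.1 and 79.4 CPM against 41.0 to 73.1 CPM. Both were picked with their values known. Those 3 libraries were among the 4 with proliferation means above all normal libraries. The other, C362A replicate 2 (6.68), was nearly level with wildtype replicate 1 (6.67). The part of RNA composition in the enterocyte and proliferation results was not tested.

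**Figure D5:**
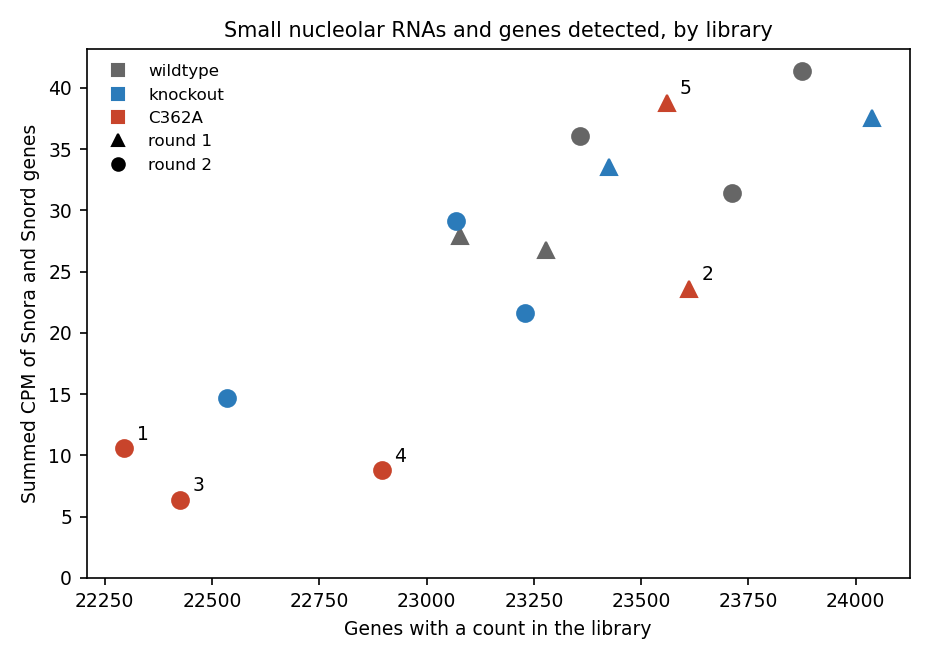
Summed CPM of Snora and Snord genes (vertical axis, from 0) against the number of genes with a count (horizontal axis), 1 point per library, coloured by genotype, with C362A replicates numbered, triangles for round 1 and circles for round 2. C362A replicates 1, 3 and 4 have sums of 6.37 to 10.6 CPM and 22295 to 22896 genes with a count.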

How the data were processed

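Counts and RPKM values were read for 15 libraries of small intestine, 5 per genotype. Per the labels' protocols, total RNA was treated with DNase, 0.5 ug entered a TruSeq v2 polyA preparation that does not mark strand, and a HiSeq4000 gave 50 bp single-end reads. Reads were aligned with GSNAP to GRCm38, per the submitters' processing notes. The deposited counts are uniquely aligned reads per gene, per the file headers, and the deposited RPKM values were scaled by a size factor per library, per the file headers. Reads shared by near-identical copies are lost under unique alignment.

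Of 36528 gene IDs, 31049 were named from RefSeq (GRCm38.p6) and 78 from GENCODE, and 5401 unnamed IDs (1.68% to 1.95% of counts) stayed in the tests. Counts were fitted with edgeR 4.0.16 (R 4.3.3): TMM factors, filterByExpr (minimum count 10, minimum total 15), robust quasi-likelihood, a mean per genotype over all 15 libraries, and the contrast of C362A with the average of the other means. The 18370 genes tested were adjusted by Benjamini and Hochberg, and an adjusted p under 0.05 was called. The biological coefficient of variation was 0.174. SE is the log2 fold change divided by the square root of F. The script was tested on simulated data. CPM are counts per 1e+06, scaled by TMM. At this depth genes under 1 CPM rest on few reads.

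The replicate numbers follow accession order and pair nothing. Members and lists were chosen with earlier results of these data known. Of 849 list entries (48 lists), 843 were found by symbol, 4 by an older symbol and 2 were not found. Mln, 1 of the 4, matched another gene and was dropped. Named genes were Casp8, Mlkl, Cflar, Fadd, Ripk1 and Ripk3, the called genes with the smallest p (at most 15 per direction), and of each list the called members (at most 3) or else the member with the smallest p. All others were chosen after their values were seen. Lists were described by counts and medians, with no test. Small nucleolar RNAs were taken by symbol (Snora, Snord), a choice made after the values were seen. Alternatives were other scalings, DESeq2 1.42.0, limma-voom (limma 3.58.1), limma on log2(RPKM + 1), other filters and thresholds, blocks and covariates, and each library left out.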

Additional observations from a re-analysis of the deposited data

Results flagged for a closer look

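Of 282 groups of 5 libraries (3 per named gene), 10 had a library far from the other 4 by Dixon's criterion. The criterion marks about 1 group in 20 of independent, normally distributed values. Genes here share libraries and many were picked with values known, so the count of 10 was not judged against chance. Keratin genes of squamous epithelium stood out in the same library, C362A replicate 4, with Krt4 at 79.3 CPM, Krt13 at 53.1 CPM and Krt5 at 27.3 CPM. In C362A replicate 5, Mlkl was at 0.839 CPM and Hk2, a hexokinase gene of glycolysis, at 55.3 CPM, both above the other C362A libraries. Among knockout libraries, Nos2 was at 1.80 CPM in replicate 1, and Apobec3 at 8.48 CPM and Casp1 at 12.5 CPM in replicate 4, each below the rest of the group. The Y-linked gene Eif2s3y was at 0.109 CPM in knockout replicate 2 and at 0.0 CPM in wildtype replicate 5, the 2 normal libraries without Y-linked expression.

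For 4 named genes the comparison itself differed between the rounds of sample IDs, by edgeR's quasi-likelihood test of the interaction over all genes. The log2 fold change of round 2 minus that of round 1 was −1.05 for Ccnl1 (SE 0.15, adjusted p = 0.0179), −1.15 for Mdm4 (SE 0.19, adjusted p = 0.0324), −1.69 for the small nucleolar RNA host transcript Snhg16 (SE 0.31, adjusted p = 0.0445) and −1.72 for Folr2, a folate receptor gene of macrophages (SE 0.30, adjusted p = 0.0352). The 4 genes were named after their values were seen.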

How the results depend on the processing

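The count of 7 called genes stayed between 6 and 10 with RLE or upper-quartile factors, limma-voom, limma on log2(RPKM + 1), robust estimates off, no filter, a block for the round, the covariates for Y-linked expression and for the number of genes with a count, an adjusted p under 0.01 and a minimum fold of 1.2. It was 12 with library totals, 244 with DESeq2 (3 of the 7, since Mgl2, Slamf8, Serpina3f and Spic got no adjusted p from its own filters) and 234 with DESeq2 without those filters (7 of the 7), 3930 with limma-voom and a quality weight per library, 1 with at least 5 CPM in 5 libraries (12919 genes left), 0 with the 10 normal libraries as 1 group, 0 with only round 1, 2720 with only round 2, and 3478 without both C362A libraries of round 1. With the covariate for Y-linked expression 7 genes were called, which held 6 of the main 7 and not Serpina3g. Leaving out each library in turn gave 6 to 3113 called genes, and only C362A replicate 5 gave more than 9. The fits without both round 1 libraries, with the covariate for genes with a count and with DESeq2 without its own filters were chosen after seeing the data. For Ripk1 the log2 fold change turned positive with library totals (0.015), the Y-linked covariate (0.012), only round 2 (0.010) and without both round 1 C362A libraries (0.045), and ran from −0.040 to 0.012 with single libraries left out (positive from 0.0033 to 0.012). Ripk3 turned to 0.00120 with library totals and to 0.047 without C362A replicate 4 (−0.068 to 0.047 with single libraries left out), and Fadd to −0.031 in only round 1 and −0.027 with the covariate for genes with a count. Sis turned to −0.022 with limma-voom, −0.84 in only round 1, −0.043 with that covariate and −0.024 without C362A replicate 3. Only round 1 also reversed Mlkl (0.20), Barx1 (−0.87), Mki67 (−0.011), Ptprc (−0.013), Ccnl1 (0.11), Mdm4 (0.12), Snhg16 (0.11), Folr2 (0.40), S100a8 (−0.74) and S100a9 (−0.69). The cause of these changes was not tested. Of 288 list medians under RLE factors or without a C362A library, 287 moved by less than 1 SD of the C362A libraries. That SD includes the library left out, so the limit was wide and says little about stability. Without C362A replicate 5 the enterocyte median went from −0.66 to −0.85, and that of interferon-stimulated genes from 0.17 to 0.01. No paired analysis was possible because the replicate numbers only follow accession order.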
